A study of Homo sapiens with 24 samples.

Results

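The 12 DMSO libraries of the clone experiment, out of 24 PRO-seq libraries in the series, were compared by replicate number: the 6 libraries numbered 1 or 2 against the 6 numbered 3 or 4, with the clone held in the model. PRO-seq (precision run-on sequencing) is designed to read the 3′ ends of nascent RNA. A gene's read count is then meant to follow the polymerases engaged on it and not the stock of finished RNA. Whether finished RNA also entered the counts was not tested. The cells were T47D, an established luminal, estrogen receptor-positive breast cancer line, in 3 derived lines named Clone 28, Clone 35 and Clone 39. Each line is 1 clone and gave 4 libraries per treatment. The cells carry 4 copies of TRPS1, of which editing had disrupted 2 or 3 depending on the clone, and the remaining TRPS1 bore the dTAG degron, so no library came from untagged parental cells. The 12 libraries described here received the vehicle, DMSO at 0.1% v/v, for 90 min. The 12 libraries used for comparison received dTAG-13 at 100 nM for 90 min, a compound that has the tagged protein degraded. Replicates were collected on the same day at separate times, and the DMSO and dTAG-13 libraries of each number were collected together. The labels give no clock times and do not say whether the numbers follow the order of collection, whether the clones of each number were collected together, or whether libraries were prepared by number, so the 12 libraries may be as few as 4 collections, collection and library preparation cannot be told apart, and p-values measure only the spread between these libraries.

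Cells in culture do not transcribe at a fixed rate. Histone genes coupled to DNA replication are transcribed mainly in S phase, and genes for mitotic kinases, kinesins and cyclins mainly in G2 and M. Heat shock genes, immediate early genes and targets of ATF4 respond within minutes to handling, medium or temperature, and the genes of the circadian clock and the estrogen response follow hormone and serum in the medium. Long genes need an elongating polymerase to travel much further than short ones.

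Library totals did not separate the numbers. They ranged from 3950161 to 5983480 counts in replicates 1 and 2 and from 3626852 to 7106656 in replicates 3 and 4 (exact permutation within clones, two-sided, p = 0.333). The label of T47D was checked on marker genes: the 14 luminal markers summed to 5218.4 to 6597.4 CPM (counts relative to the scaled library total) in replicates 1 and 2 and to 4400.7 to 5447.2 CPM in replicates 3 and 4, ranges that overlapped. Gene by gene, 7 of these 14 were lower in replicates 3 and 4, none was higher, all 14 had a negative difference and the median was -0.20. Over all genes tested 15.3% were lower and 15.5% higher. Markers of basal or myoepithelial cells summed to at most 33.1 CPM, fibroblast markers to at most 25.1, immune markers to at most 22.7 and endothelial markers to at most 10.0 CPM in any DMSO library. Of these markers 3 of 8 basal (KRT5, KRT14 and KRT17), 1 of 8 fibroblast (LUM), 3 of 7 immune (CD79A, LYZ and TYROBP) and 1 of 5 endothelial (KDR) had no more than 3 counts in every DMSO library, and the others exceeded 3 counts in at least 1 library. The first DMSO replicate of Clone 28 stood apart in the share of its counts on small nucleolar RNAs, 0.527% against 0.178% to 0.2945% in the other 11.

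Transcription differed between the replicate numbers in both directions. Of 22341 genes tested, 6887 passed an adjusted p of 0.1 (30.8%), and 7864 had an unadjusted p under 0.05 where 1117.05 would be expected. Replicates 3 and 4 were higher in 3462 genes (15.5%) and lower in 3425 (15.3%). Most differences were small: the median size among the genes called was 0.27 on the log2 scale, 530 were higher by more than 0.5 and 606 lower by more than 0.5. With libraries scaled by their totals alone the split was 4826 higher and 2333 lower, scaled on protein-coding genes of at least 20 kb it was 4590 and 2499, and with each library's trend of gene length removed 2609 and 2492, so the balance of directions depends on the scaling. With counts summed over the clones of each number, 2 sums against 2, 4377 genes passed, and without the clone in the model 3021. In every clone both libraries numbered 3 and 4 lay above both numbered 1 and 2 for 1667 genes (7.46%) and below for 1761 (7.88%). After a principal component that separated the clones (34.2% of the variance), the second component held 17% of the variance, and the number group accounted for 0.85 of it.

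Over all genes tested, most calls between neighbouring numbers lay between 2 and 3. Replicate 3 against 2 gave 3691 genes (16.5%), of which 1741 were higher (7.79%) and 1950 lower (8.73%). Replicate 2 against 1 gave 778 (3.48%), with 262 higher (1.17%) and 516 lower (2.31%). Replicate 4 against 3 gave 8 (0.0358%), with 1359 genes at an unadjusted p under 0.05 in edgeR's quasi-likelihood test where 1117.05 would be expected. Of these, MT-ND6, MT-ND3, PLSCR1, OAS3, H1-2, RPS6KA5 and LINC00943 are named because they were so few, after their values were seen. PLSCR1 was higher by 0.61 and OAS3 by 0.35 on the log2 scale in replicate 4 than in 3, and PLSCR1 was at -0.37 for 2 against 1 and -0.34 for 3 against 2. Of the 37 tested genes of the interferon response list 2 were called higher between replicates 4 and 3. Leaving out Clone 28 raised the count for 4 against 3 to 41 and leaving out Clone 39 lowered it to 2.

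The replication-dependent histone genes, which supply nucleosomes for newly made DNA, had the largest share of higher genes among the lists examined. Of 67 listed, 57 were tested, 54 were higher in replicates 3 and 4, none was lower and the median was 0.52 on the log2 scale, against 15.5% higher and a median of -0.0033 over all genes tested. The histone median was 0.17 for replicate 2 against 1, 0.38 for 3 against 2 and 0.13 for 4 against 3. In that order 15, 50 and 1 were higher, where 1.17%, 7.79% and 0.0269% of all genes were. H3C3, a histone H3 gene, measured 22.2, 31.3 and 35.5 CPM (lowest, median and highest of 6) in replicates 1 and 2 and 51.2, 61 and 67.2 CPM in replicates 3 and 4. The groups did not overlap, and the difference was 0.98 ± 0.07 (SE, n = 6 and 6, adjusted p = 2.85e-12). H4C3, a histone H4 gene, went from 29.5 to 40.6 CPM in replicates 1 and 2 to 54.6 to 78.1 CPM in replicates 3 and 4, again without overlap. Its difference was 0.78 ± 0.06 (SE, adjusted p = 1.30e-12). H2AC15 was higher by 0.84 and H2BC4 by 0.52, both also without overlap. The 3 tested members that did not pass were H2BC10 at 0.21, H3C6 at 0.13 and H2BC6 at -0.10. Histone genes are near-identical copies, and reads could be split between them in the counting, so the list's total is firmer than any single member. That total, as a share of all counts, was 0.342% ± 0.042 (SD, n = 6) in replicates 1 and 2 and 0.503% ± 0.069 (SD, n = 6) in replicates 3 and 4 (exact permutation, p = 0.00926, the smallest that permutation within clones can give).

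Genes of DNA replication and of mitosis shifted with the histones. Of 47 genes of G1/S and DNA replication 41 were higher, 1 was lower and the median was 0.28. Of 42 genes of G2/M and mitosis 34 were higher, none was lower and the median was 0.38. TK1, thymidine kinase, measured 50.2, 53.5 and 67.5 CPM in replicates 1 and 2 and 68.3, 79.9 and 86.9 CPM in replicates 3 and 4. The ranges touched without overlapping, with a difference of 0.48 ± 0.06 (SE, adjusted p = 1.42e-08). CCNE2, cyclin E2, was higher by 0.42, PCNA, the sliding clamp of the replication fork, by 0.42, and CLSPN, claspin, by 0.50, each without overlap. MCM5, MCM6, POLA1, RFC3 and MSH6 did not pass and lay between -0.09 and 0.08.

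Among the mitotic genes AURKB, aurora kinase B, differed most: 6.61, 12.7 and 18.2 CPM in replicates 1 and 2 and 13.8, 20.8 and 37.3 CPM in replicates 3 and 4. The pooled ranges overlapped because the clones differ in level, but within each clone they did not, and the difference was 0.92 ± 0.11 (SE, adjusted p = 3.21e-08). BIRC5, survivin, ran from 31.4 to 40.7 CPM in replicates 1 and 2 and from 45.6 to 63.3 CPM in replicates 3 and 4, a difference of 0.52 without overlap. KIF11, the motor that separates spindle poles, ran from 155 to 198 CPM and from 204 to 246 CPM, a difference of 0.35, also without overlap. FOXM1, a transcription factor of mitotic genes, was higher by 0.59 and CCNB2, cyclin B2, by 0.69. CENPF did not pass, at -0.50 ± 0.43 (SE, adjusted p = 0.46), with single libraries at 460.1 CPM in Clone 28 and 484.2 CPM in Clone 39 where the other 10 lay between 131.6 and 252 CPM. In bulk libraries a larger share of cells in a phase and more transcription per cell cannot be told apart. Median differences of the mitotic list were 0.46 in Clone 28, 0.42 in Clone 35 and 0.26 in Clone 39, and of the replication list 0.15, 0.28 and 0.38. Over all clones the mitotic median was 0.16 for replicate 2 against 1, 0.24 for 3 against 2 and 0.12 for 4 against 3. The replication median was 0.05, 0.22 and 0.07 in the same order.

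**Figure D1:**
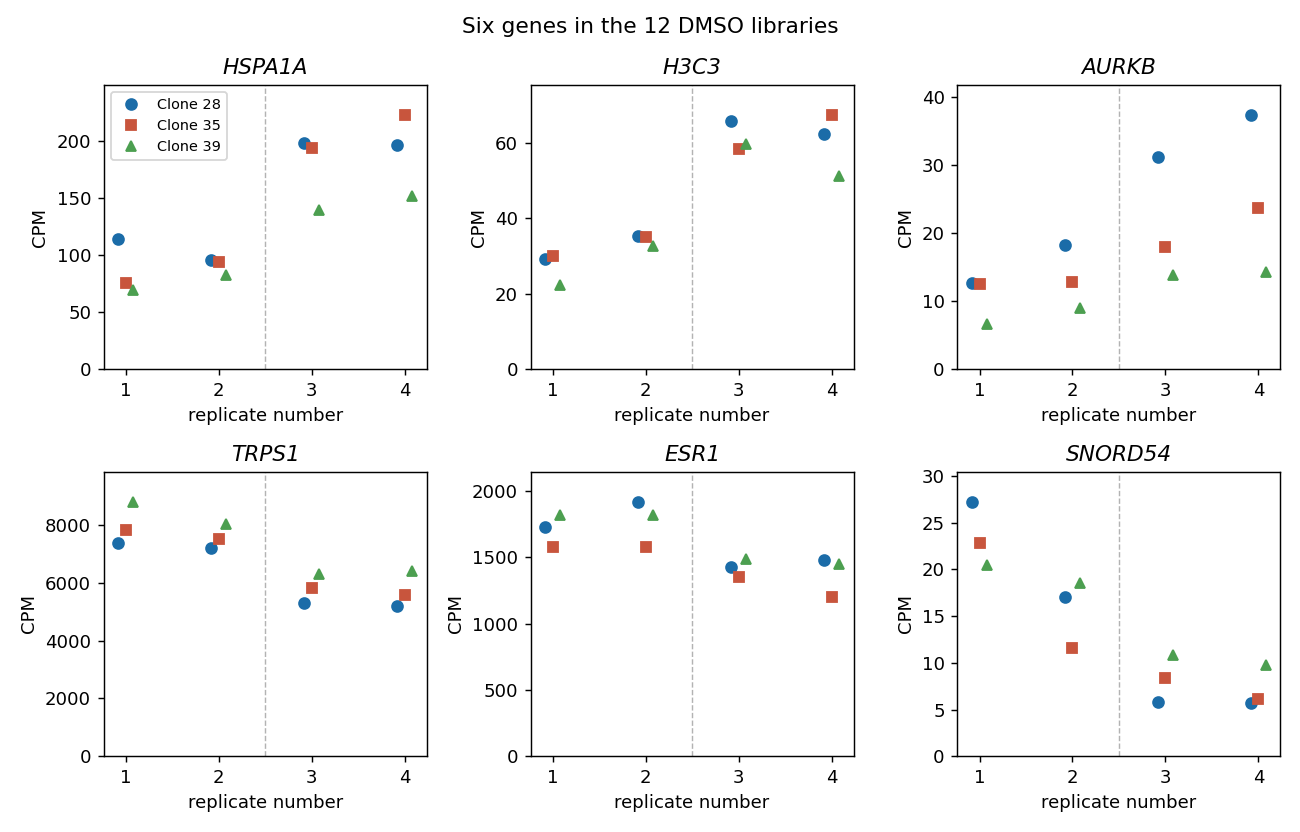
CPM (vertical axis, from 0) of 6 genes in the 12 DMSO libraries by replicate number (horizontal axis), 1 point per library and 1 colour and shape per clone. HSPA1A, H3C3 and, within each clone, AURKB are higher in replicates 3 and 4, and TRPS1, ESR1 and SNORD54 are lower.

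A heat shock gene had the largest rise but for TUBB2A among genes of at least 10 CPM separated in every clone. HSPA1A, the stress-inducible HSP70 chaperone (chr6:31815543-31817946, hg38, plus strand), measured 69.8, 88.3 and 114 CPM in replicates 1 and 2 and 140, 195 and 222 CPM in replicates 3 and 4. The groups did not overlap and the difference was 1.05 ± 0.09 (SE, adjusted p = 2.07e-05). Its neighbour HSPA1B (chr6:31827738-31830254) ran from 60.3 to 80.1 CPM and from 97.9 to 123 CPM, a difference of 0.63 ± 0.05 (SE, adjusted p = 8.52e-13). The copies code for the same protein and share most of their sequence, so the split of reads between them is uncertain, and HSPA1B overlaps another gene on its strand. Of 36 genes of the heat shock and chaperone list 18 were higher, 2 were lower (HSPA4 and HSPB8, by 0.10 and 0.12) and the median was 0.16. FKBP4, a co-chaperone of steroid receptors, was higher by 0.52, HSPD1, the mitochondrial HSP60, by 0.39, HSP90AB1 by 0.35 and STIP1, which links HSP70 to HSP90, by 0.32. DNAJB1, at 0.08, BAG3, at 0.02, and HSPH1, at 0.41, did not pass. With the trend of gene length removed from each library, 11 of the list were higher and 4 lower.

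Promoters of heat shock, histone and mitotic genes are shown as examples, chosen after their values were seen, because they differ in the short motifs they carry. Each runs from 250 bases before to 50 after the RefSeq start (GRCh38.p14), 5′ to 3′ on the gene's own strand. Capitals mark the heat shock motif GAANNTTC, the CCAAT box in either orientation and TATAAA in either orientation. HSPA1A lies at chr6:31815293-31815592, plus strand, HSPA1B at chr6:31827488-31827787, plus strand, H3C3 at chr6:26045134-26045433, plus strand, H2BC4 at chr6:26123877-26124176, minus strand, KIF11 at chr10:92592880-92593179, plus strand, and KIF2C, a microtubule-depolymerizing kinesin, at chr1:44739587-44739886, plus strand.
HSPA1A: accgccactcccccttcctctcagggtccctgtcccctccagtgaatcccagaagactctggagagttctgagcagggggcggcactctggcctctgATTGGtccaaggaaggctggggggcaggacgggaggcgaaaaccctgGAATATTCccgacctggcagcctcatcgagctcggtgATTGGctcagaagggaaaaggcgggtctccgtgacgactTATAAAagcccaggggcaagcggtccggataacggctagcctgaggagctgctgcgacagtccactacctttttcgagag
HSPA1B: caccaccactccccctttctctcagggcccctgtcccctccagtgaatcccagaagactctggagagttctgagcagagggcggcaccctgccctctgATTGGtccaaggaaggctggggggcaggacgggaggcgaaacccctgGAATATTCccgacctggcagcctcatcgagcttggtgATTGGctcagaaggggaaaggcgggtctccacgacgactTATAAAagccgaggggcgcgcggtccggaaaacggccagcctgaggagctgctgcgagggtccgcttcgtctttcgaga
H3C3: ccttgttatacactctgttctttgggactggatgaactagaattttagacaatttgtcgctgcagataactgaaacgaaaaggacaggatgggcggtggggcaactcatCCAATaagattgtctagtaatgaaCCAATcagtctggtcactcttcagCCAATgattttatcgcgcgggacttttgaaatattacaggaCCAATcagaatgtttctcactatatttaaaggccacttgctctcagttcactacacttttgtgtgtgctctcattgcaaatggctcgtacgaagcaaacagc
H2BC4: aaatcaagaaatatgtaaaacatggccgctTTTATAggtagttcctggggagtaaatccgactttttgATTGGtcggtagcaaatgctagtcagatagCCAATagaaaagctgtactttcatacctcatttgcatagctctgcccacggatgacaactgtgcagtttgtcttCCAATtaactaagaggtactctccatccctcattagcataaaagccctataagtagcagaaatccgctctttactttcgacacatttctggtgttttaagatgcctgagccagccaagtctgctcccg
KIF11: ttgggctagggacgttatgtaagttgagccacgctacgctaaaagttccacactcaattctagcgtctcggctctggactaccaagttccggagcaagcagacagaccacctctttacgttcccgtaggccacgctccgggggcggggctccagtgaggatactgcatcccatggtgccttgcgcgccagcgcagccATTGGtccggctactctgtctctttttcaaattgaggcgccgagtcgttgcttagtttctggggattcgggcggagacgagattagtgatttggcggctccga
KIF2C: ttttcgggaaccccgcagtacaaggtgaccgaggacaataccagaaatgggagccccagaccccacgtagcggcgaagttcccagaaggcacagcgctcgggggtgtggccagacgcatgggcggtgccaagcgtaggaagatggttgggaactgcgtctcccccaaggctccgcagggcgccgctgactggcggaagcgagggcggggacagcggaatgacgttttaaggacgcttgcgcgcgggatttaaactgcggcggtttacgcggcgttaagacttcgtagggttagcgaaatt
Both HSP70 promoters hold 1 heat shock motif, 2 CCAAT boxes and 1 TATAAA. H3C3 holds 4 CCAAT boxes, H2BC4 holds 3 with 1 TATAAA, and KIF11 holds 1. KIF2C, higher by 0.58 where KIF11 was higher by 0.35, holds none of the 3 motifs.

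A promoter was matched by symbol for 9771 of the 22341 genes. On either strand CCAAT was present in 44.1% of the 1735 promoters of higher genes, 34.3% of the 1470 of lower genes and 37% of all 9771. It was in 39 of 48 histone promoters (81.2%) and 24 of 29 promoters of the mitotic list (82.8%), in 58.6% of 29 promoters of the replication list and in 38.9% of 18 of the heat shock list. GAANNTTC was in 10 of 18 promoters of the heat shock list (55.6%) but in 5.13% of higher, 5.1% of lower and 5.09% of all promoters. GGGCGG, which binds SP1, was in 76.8% of higher, 63.3% of lower and 67.5% of all promoters. AGATAA, which GATA factors bind, was in 3.57%, 6.73% and 5.57% in the same order. CACGTG was in 10.1%, 10.9% and 9.72%, AGGTCA, a nuclear receptor half-site, in 8.65%, 9.25% and 10.2%, and TGACGTCA in 4.55%, 3.4% and 3.37%. TATAAA was in 7.38%, 7.14% and 6.37%. These shares were not tested.

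Genes of amino acid and stress metabolism were more often higher than lower. Of 43 tested genes of the ATF4 integrated stress response 24 were higher, 3 were lower and the median was 0.21. PPP1R15A, the GADD34 phosphatase subunit that ends the response, measured 20.2, 28.6 and 37.6 CPM in replicates 1 and 2 and 33.6, 47.7 and 59.7 CPM in replicates 3 and 4. The ranges overlapped slightly, and the difference was 0.71 ± 0.09 (SE, adjusted p = 9.33e-07). ATF5 was higher by 0.51, SHMT2 by 0.45, PHGDH, the entry enzyme of serine synthesis, by 0.37 and ATF4 itself by 0.22. STC2, a secreted glycoprotein that is also on the estrogen-induced list, had the smallest p of the list and was lower by 0.29 (adjusted p = 3.36e-08). ASNS, at -0.13, and TRIB3, at 0.13, did not pass. Of 25 tested genes of cholesterol synthesis and uptake 14 were higher, none was lower and the median was 0.18, with TMEM97 at 0.49 and EBP at 0.44. HMGCS1, an enzyme of the early pathway, was at 0.02 and did not pass. With the trend of length removed 9 were higher and 1 lower. Of 36 tested genes of hypoxia and glycolysis 14 were higher and 2 lower, with GAPDH at 0.47, ALDOA at 0.36 and ADM, adrenomedullin, at 0.74.

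Genes of the immediate early, glucocorticoid and clock lists were more often higher than lower. In the list of ERBB, FGF and RAS feedback 7 of 27 tested genes were higher and 9 lower, with a median of -0.03. The share lower was 9.09% in both the immediate early and the clock list, below the 15.3% over all genes. Of 33 tested immediate early genes 11 were higher, 3 were lower and the median was 0.14. ZFP36 and FOSL2 were higher without overlap, by 0.36 and 0.32, while MYC, 73.7 to 97.2 CPM in replicates 1 and 2 and 59.9 to 70.7 CPM in replicates 3 and 4, was lower by 0.34 without overlap, and FOS was lower by 0.26. With the trend of length removed 5 of the list were higher and 3 lower. Of the glucocorticoid-responsive genes 5 of 14 were higher and none was lower. CEBPD, a bZIP transcription factor, measured 30.5, 43.7 and 46.5 CPM against 67.7, 80.8 and 94.7 CPM, a difference of 0.98 ± 0.07 (SE, adjusted p = 1.34e-12). NFKBIA was higher by 0.46. FKBP5, at 0.03, and SGK1, at -0.10, did not pass. Of 22 tested clock genes 7 were higher and 2 lower. With libraries scaled by their totals 12 were higher and 1 lower, where 4826 and 2333 of all 22341 genes were. The period gene PER3 was higher by 0.38, PER1 by 0.36, CRY2 by 0.31 and the output factor DBP by 0.44, whereas CLOCK and BMAL1, which drive those genes, were lower by 0.21 and 0.19. NR1D1 was at 0.28 and did not pass.

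**Figure D2:**
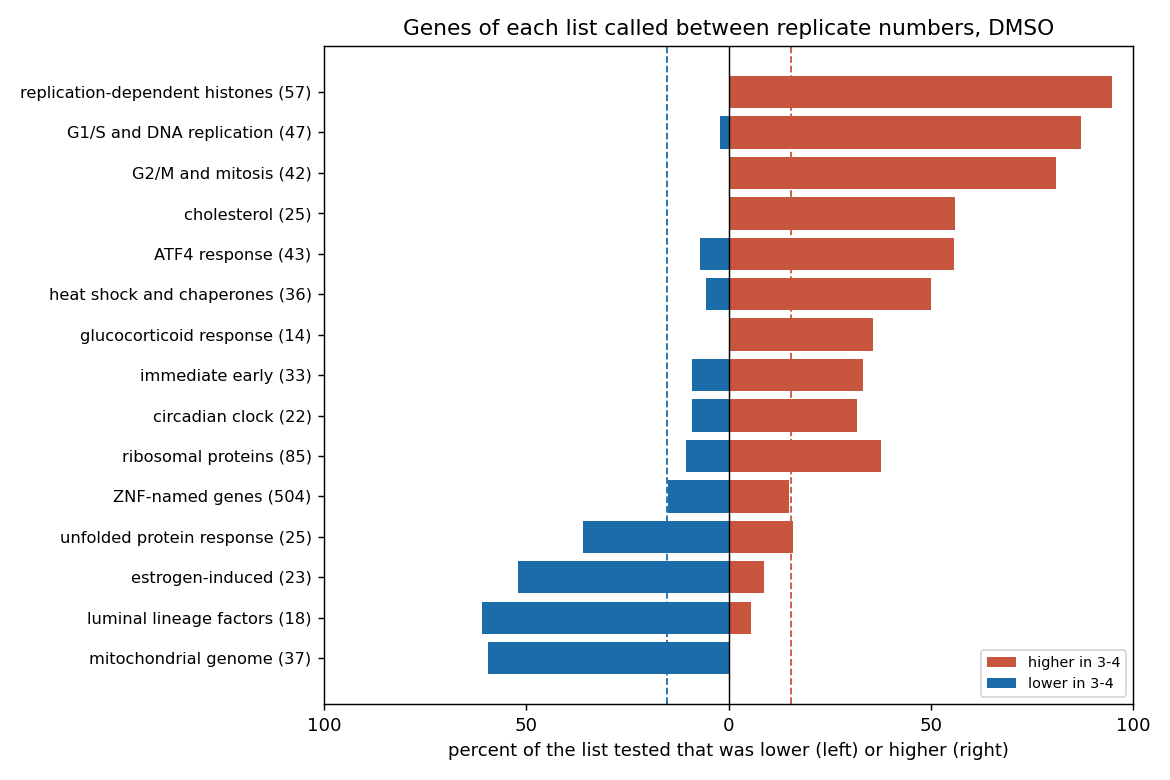
Percent of the tested genes of 15 lists (number tested in brackets) that were higher in replicates 3 and 4 (right) or lower (left) at an adjusted p of 0.1, DMSO libraries. Dashed lines mark the 15.5% higher and 15.3% lower among all genes tested.

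More luminal and estrogen-induced genes were lower than higher in replicates 3 and 4. Of 18 luminal lineage factors 11 were lower, 1 (ELF5, by 0.10) was higher and the median was -0.22. TRPS1 itself, the targeted gene (chr8:115408496-115809673, hg38, minus strand), measured 7206, 7668 and 8786 CPM in replicates 1 and 2 and 5207, 5687 and 6421 CPM in replicates 3 and 4. The groups did not overlap, and the difference was -0.43 ± 0.02 (SE, adjusted p = 8.89e-19), with -0.47 in Clone 28, -0.43 in Clone 35 and -0.40 in Clone 39. dTAG-13 acts on the protein, and transcription of the gene is no check of the treatment labels. ESR1, estrogen receptor alpha, measured 1579, 1770 and 1915 CPM against 1203, 1440 and 1487 CPM, a difference of -0.31 ± 0.03 (SE, adjusted p = 2.53e-11), without overlap. PRLR, the prolactin receptor, was lower by 0.34 without overlap, PGR, the progesterone receptor, by 0.39, GRHL2 by 0.26 and FOXA1, the pioneer factor, by 0.24. SPDEF, at -0.01, ELF3, at 0.04, and TFAP2C, at 0.01, did not pass. With the trend of length removed 11 were lower and 1 higher, the same counts as before.

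Of 23 tested genes known to be induced by estrogen 12 were lower and 2 were higher, with a median of -0.16. Between single numbers the median was -0.16 for 2 against 1, with 8 lower and 1 higher, and -0.03 for 3 against 2, with 6 lower and 3 higher. Over all genes 2.31% were lower and 1.17% higher for 2 against 1. For 3 against 2 the shares were 8.73% lower and 7.79% higher. RERG measured 300, 340 and 383 CPM in replicates 1 and 2 and 246, 261 and 282 CPM in replicates 3 and 4, a difference of -0.38 without overlap. NRIP1 was lower by 0.36, XBP1 and STC2 by 0.29 each, and GREB1 by 0.16. TFF1, at -0.48, and TFF3, at -0.33, did not pass. AREG, amphiregulin, an EGF receptor ligand, went against its list: 10.2, 14.3 and 24.1 CPM against 18.7, 25.3 and 42.6 CPM, a difference of 0.89 ± 0.11 (SE, adjusted p = 2.79e-07) with overlap between clones. HBEGF, another ligand of the family, was higher by 0.78 without overlap. The mitochondrial genome gave 22 of 37 genes lower and none higher, with a median of -0.32, or 14 lower and 1 higher with a median of -0.155 with the trend of length removed. Its share of counts was 1.89% ± 0.18 (SD, n = 6) in replicates 1 and 2 and 1.47% ± 0.22 (SD, n = 6) in replicates 3 and 4 (exact permutation, p = 0.0185). MT-TF, a mitochondrial transfer RNA gene, was lower by 1.83, from 278 to 635 CPM down to 79.1 to 141 CPM.

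The direction of the shift followed the length of the gene. Among protein-coding genes under 5 kb 38.6% were higher and 2.26% lower, with a median of 0.20, and in those of 200 kb and over 1.4% were higher and 41.3% lower, with a median of -0.16. The medians between were 0.10 at 5 to 20 kb, 0.02 at 20 to 50 kb, -0.04 at 50 to 100 kb and -0.10 at 100 to 200 kb. Each clone gave the same order, with medians of 0.22, 0.18 and 0.21 in the shortest class and -0.16, -0.14 and -0.16 in the longest for Clones 28, 35 and 39. The step lay between numbers 2 and 3, where the longest class had a median of -0.16, against 0.01 for 2 against 1 and 0.01 for 4 against 3. Genes of 200 kb and over held 17.6% ± 0.4 (SD, n = 6) of all counts in replicates 1 and 2 and 16.1% ± 0.3 (SD, n = 6) in replicates 3 and 4 (exact permutation, p = 0.00926). The most abundant 100 genes held 10.2% ± 0.5 (SD, n = 6) and 8.95% ± 0.36 (SD, n = 6) of counts (exact permutation, p = 0.00926). Length and list membership go together for some groups: histone genes had a median length of 0.502 kb, and with the trend of length removed 52 of them were higher, as were 35 of the mitotic and 38 of the replication genes. Of 85 tested genes for cytosolic ribosomal proteins, whose median length was 5.55 kb, 32 were higher and 9 lower, but 10 were higher and 22 lower with the trend removed, and the median turned from 0.07 to -0.03.

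**Figure D3:**
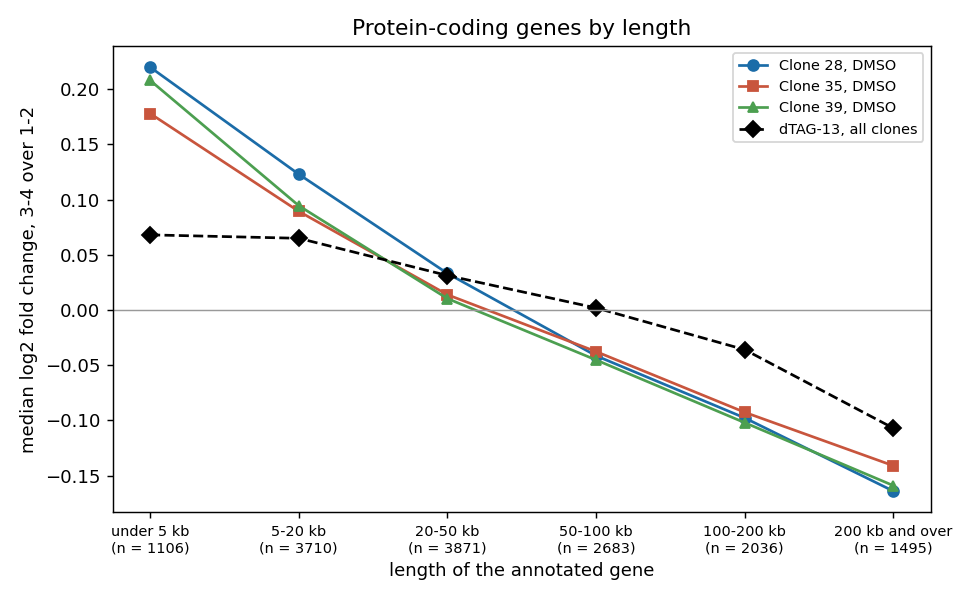
Median log2 fold change of replicates 3 and 4 over 1 and 2 (vertical axis) for protein-coding genes in 6 classes of annotated length (horizontal axis, number of genes in brackets), for each clone in DMSO and for all clones in dTAG-13. The DMSO medians run from 0.20 in the shortest class to -0.16 in the longest over all clones, and the dTAG-13 medians from 0.07 to -0.11.

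Genes of small nucleolar RNAs and 5S ribosomal RNA went the other way from short protein-coding genes. Those of small nuclear RNAs went both ways, with 25 of 122 higher, 24 lower and a median of -0.0064. For them replicate 2 against 1 gave 11 lower and none higher, where 2.31% of all genes were lower and 1.17% higher. Replicate 3 against 2 gave 23 higher and 5 lower, where 7.79% of all genes were higher and 8.73% lower. Of 217 small nucleolar RNA genes, whose products guide modification of ribosomal RNA, 132 were lower and 2 higher in replicates 3 and 4, with a median of -0.78. Of 18 genes annotated as ribosomal RNA, mainly 5S copies, 17 were lower and none higher. SNORD54 measured 11.6, 19.5 and 27.2 CPM in replicates 1 and 2 and 5.72, 7.21 and 10.8 CPM in replicates 3 and 4, without overlap and with a difference of -1.33 ± 0.22 (SE, adjusted p = 0.0015). SNORD5 and SNORD36B were lower by 1.34 and 1.43, but only by 0.96 and 0.85 without the first DMSO replicate of Clone 28, where SNORD36B stood at 55.11 CPM. RNA5S9 was lower by 1.40, and the 5S pseudogenes RNA5SP132, RNA5SP426, RNA5SP500 and RNA5SP358 were lower too, with log2 differences between -1.94 and -1.65. Without the same library RNA5SP132 was at -1.52 and RNA5SP358 at -1.27. Copies of 5S genes and their pseudogenes are near-identical and share reads. ENSG00000260042 contains RNA5SP426 and its mean CPM, 19.50, was close to that of the pseudogene, 19.32, so their reads cannot be told apart. Of the 217 small nucleolar RNAs 208 lay inside a tested gene on the same strand. The RNAs had a median of -0.81 and their 112 host genes a median of -0.06, and 196 of the 208 were below their host. Whether finished small nucleolar RNAs entered these counts was not tested. Between single numbers, 79 of the 217 small nucleolar RNAs were lower in replicate 2 than in 1, where 2.31% of all genes were. In replicate 3 against 2, 24 of the 217 were lower, where 8.73% of all genes were. Without the first DMSO replicate of Clone 28, 107 were lower, and over all single libraries left out the count ran from 95, without its replicate 4, to 169, without its replicate 2. Without number 1 in all clones 51 were lower, with a median of -0.37, and with counts summed over clones 69 were lower. The medians were -1.05 in Clone 28, -0.70 in Clone 35 and -0.60 in Clone 39. MALAT1, an abundant nuclear long non-coding RNA, was lower by 0.56 ± 0.03 (SE, adjusted p = 1.12e-17), with shares of 0.125% to 0.134% of all counts in replicates 1 and 2 and 0.0854% to 0.0992% in replicates 3 and 4.

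**Figure D4:**
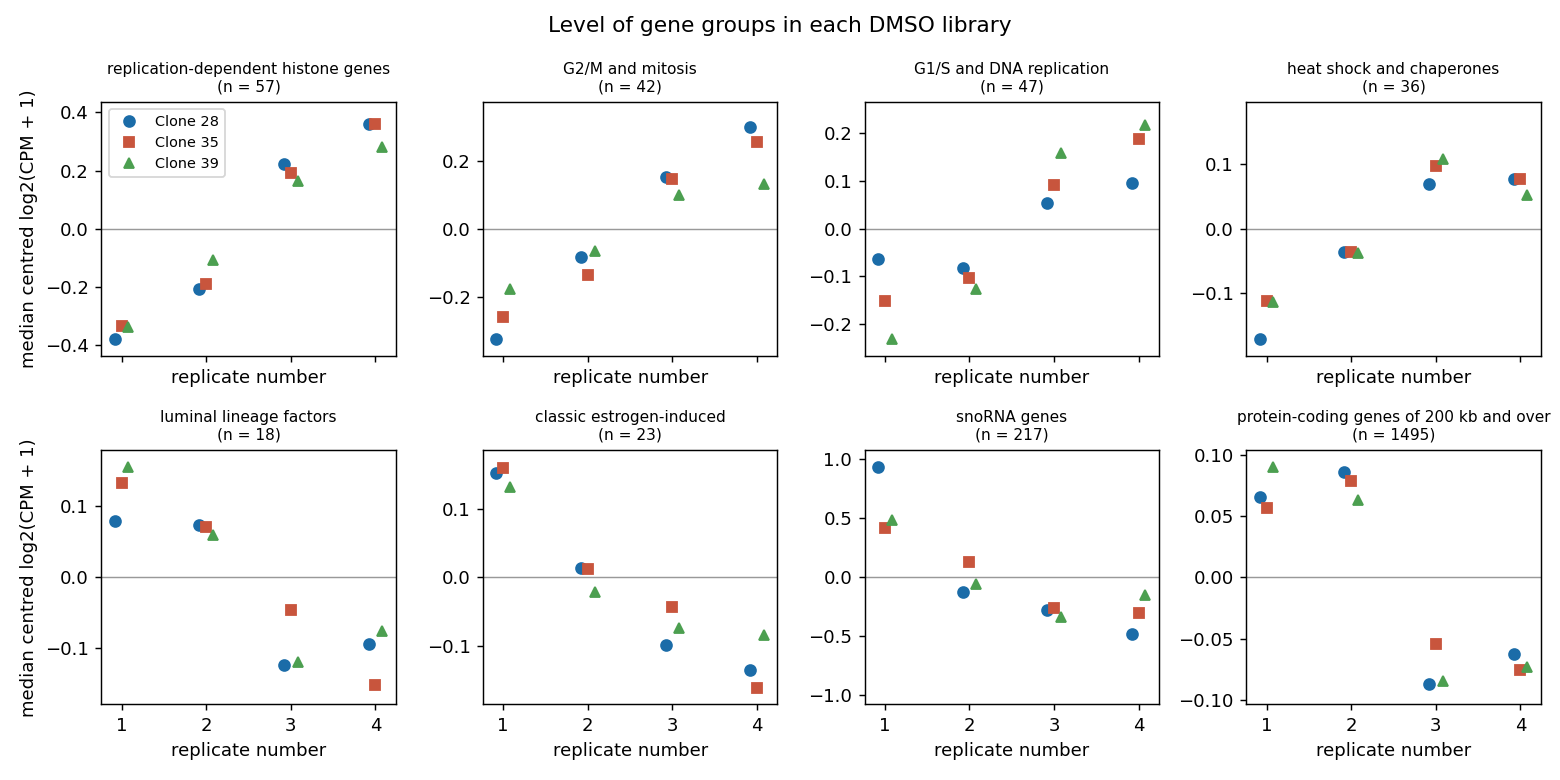
Level of 8 gene groups in each DMSO library: the median over the group's genes of log2(CPM + 1) minus each gene's mean over the clone's 4 libraries (vertical axis, its own scale in each panel), by replicate number and clone. Histone, mitotic, replication and chaperone genes lie above 0 in replicates 3 and 4 in every clone and luminal and long genes below, whereas small nucleolar RNAs are highest in replicate 1.

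Single genes with the largest differences were mostly short. After those above, the largest among genes of at least 10 CPM that were separated in all 3 clones were TUBB2A, a beta-tubulin, FHL3, CNFN, H2AC25 and the antisense RNAs PNN-AS1, ROPN1L-AS1 and YWHAH-AS1. TUBB2A (chr6:3153497-3157544, minus strand) measured 11.1, 15.4 and 17.7 CPM in replicates 1 and 2 and 21.9, 32.4 and 37.1 CPM in replicates 3 and 4, a difference of 1.08 ± 0.09 (SE, adjusted p = 3.82e-12) without overlap, and has an antisense neighbour. The antisense RNAs were higher by 1.03, 1.01 and 0.94, but the strand setting of the counting is not given in the sources used here, so their reads cannot be told from those of the genes they overlap. FHL3, CNFN and H2AC25 were higher by 0.88, 0.91 and 0.90. The falls of that rule were short RNAs, ENSG00000260042, KIF5C-AS1, lower by 1.58, and COL27A1, a fibrillar collagen, lower by 1.89 ± 0.63 (SE, adjusted p = 0.0657). Its call was lost in 5 of the fits that left out a library. COL27A1 stood at 260.8 CPM in the second DMSO replicate of Clone 35 and at 102 CPM or less in the other 11.

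The same comparison in the 12 dTAG-13 libraries called 4145 of 22652 genes (18.3%), 2192 higher (9.68%) and 1953 lower (8.62%). Of the genes higher in DMSO and tested in both, 83.1% had the same sign in dTAG-13, where 49.7% of all genes had it, and 1266 passed there in that direction, which is 36.7% of the DMSO list and 57.8% of the dTAG-13 list. Of those lower in DMSO, 89.3% had the same sign, against 50.3% of all genes, and 1185 passed, 35% of the DMSO list and 62.5% of the dTAG-13 list. In the opposite direction 40 and 3 passed. These are other libraries of the same collections, so they are no second set of collections. The mitotic list was alike in size, with a median of 0.40 in dTAG-13 and 34 of 42 higher, and small nucleolar RNAs had a median of -1.07. Other lists had medians nearer 0 in dTAG-13: luminal lineage factors -0.05 beside -0.22 in DMSO, clock genes 0.03 beside 0.18 and glucocorticoid-responsive genes 0.0029 beside 0.17. The immediate early list had -0.12 beside 0.14. Of 22 clock genes 7 were higher and 1 lower in dTAG-13. In the treatment test given below no clock gene passed in either direction, and the median of their treatment differences was 0.0136. The second dTAG-13 replicate of Clone 35 stood apart, with 1.04% of its counts on 5S genes where the other 11 held 0.0926% to 0.547%, and without it 4091 genes passed, the highest of 3179 to 4091 when each dTAG-13 library was left out in turn.

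The size of the shift differed between the treatments for 566 of 23281 genes (2.43%): 151 had a more positive difference in dTAG-13 than in DMSO (0.649%) and 415 a more negative one (1.78%). Histone genes stood out in number, 28 of 57 in the second direction and none in the first, with a median of 0.22 in dTAG-13 beside 0.52 in DMSO. With each clone-and-number pair as a replicate block, 47 of the histone genes and 1104 genes in all passed (467 and 637 in the same order). For H4C3 the difference of 0.78 in DMSO stood beside 0.24 ± 0.06 (SE) in dTAG-13, a change of -0.55 (adjusted p = 3.53e-05). TUBB2A had 0.10 in dTAG-13, where its groups overlapped, a change of -0.98 from DMSO (adjusted p = 4.82e-06). HSPA1A had 0.59 in dTAG-13, where its groups did not overlap, a change of -0.47 (adjusted p = 0.0211). Of the immediate early genes 7 of 33 had a more negative difference in dTAG-13, ZFP36 among them, at -0.12 in dTAG-13 and 0.36 in DMSO. Of the luminal lineage factors 4 of 18 had a more positive difference in dTAG-13 and none a more negative one. None of the 42 mitotic genes passed this test, and with the pair block 2 passed in the first direction and 3 in the second. TRPS1 was lower by 0.27 in dTAG-13, 0.16 less in size than in DMSO (adjusted p = 0.0685).

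**Figure D5:**
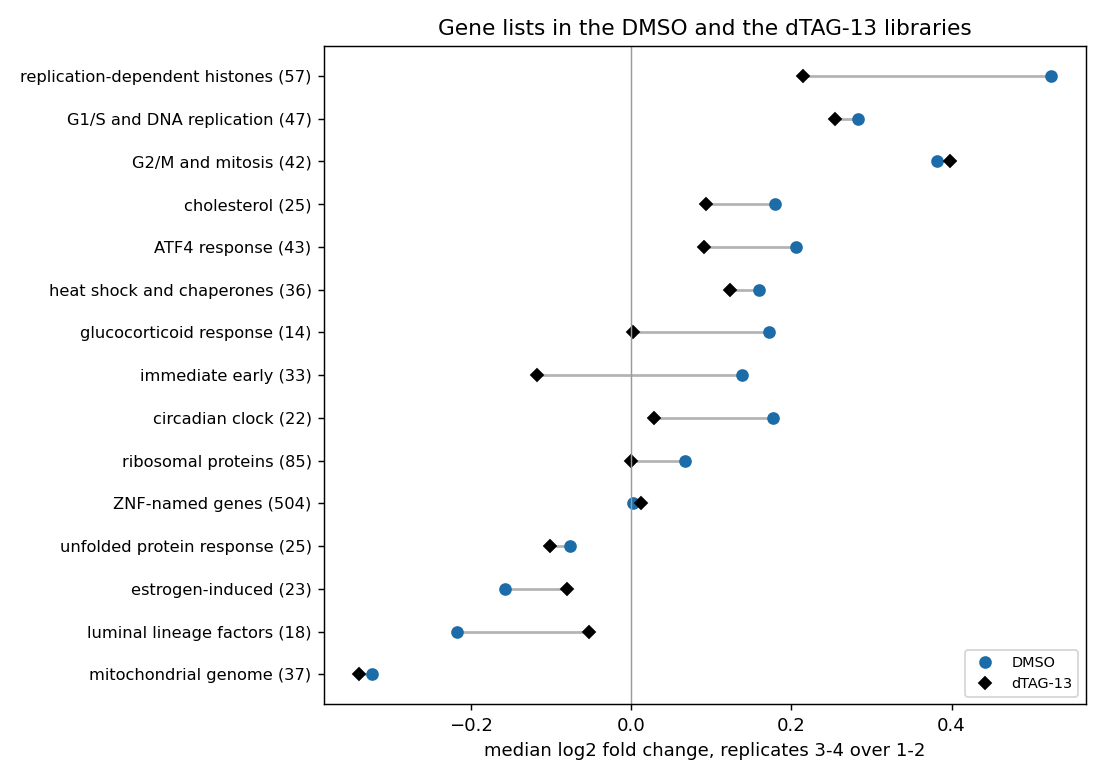
Median log2 fold change of replicates 3 and 4 over 1 and 2 for 15 gene lists (number tested in DMSO in brackets) in the DMSO libraries (circles) and in the dTAG-13 libraries (diamonds). The mitotic list has 0.38 and 0.40, the histone list 0.52 and 0.22.

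Genes that the study's separate time course of TRPS1 depletion in Clone 28 had assigned to response classes also differed by number in these DMSO libraries, which had no depletion, against 15.5% higher and 15.3% lower over all genes. Of 234 gradually activated genes 136 were lower and 22 higher in replicates 3 and 4, with a median of -0.18, and of 65 estrogen receptor targets in the activated classes 35 were lower and 7 higher. The gradually activated genes were long, with a median of 125 kb, and with the trend of length removed 76 were lower and 21 higher. FRS2, an adaptor of FGF receptors, was lower by 0.38, COL12A1 by 0.40 and INPP4B by 0.37. Of 217 gradually repressed genes 54 were lower and 31 higher, with a median of -0.02, and of 473 transiently repressed genes 133 were lower and 78 higher, with a median of -0.03. With libraries scaled by their totals both of these medians turned positive, to 0.03 and 0.02, but lay below the 0.0461 over all genes tested. With the trend of length removed they were 0.03 and 0.01, where the median over all genes was -0.009. There 52 of the gradually repressed were higher and 24 lower. Of the transiently repressed 81 were higher and 64 lower, where 2609 and 2492 of all 22341 genes were. Of 143 transiently activated genes 49 were lower and 23 higher, or 28 and 25 with the trend removed. Of 57 estrogen receptor targets in the repressed classes 17 were lower and 7 higher with a median of -0.04. With libraries scaled by their totals 12 were lower and 12 higher, with a median of 0.0083, again below the 0.0461 over all genes.

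The clones did not differ detectably in the shift. Taken alone, Clone 28 had 1746 genes (7.82%), Clone 35 had 1538 (6.88%) and Clone 39 had 1679 (7.52%), and the test of a difference between clones called 0 of 22341 (0%), with 748 genes at an unadjusted p under 0.05 in edgeR where 1117.05 would be expected. The genes with the smallest p for a difference between clones were ENSG00000228613, RN7SL3 and ARMH4, none of which passed.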

How the data were processed

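The authors trimmed adapters with cutadapt 1.8.1, removed duplicates by UMI, discarded ribosomal DNA reads, aligned with Bowtie2 2.4.4 to hg38 (versions per the submitters' processing notes, with SAMtools 1.9) and counted reads in genes. The deposited values are raw counts, whole numbers for 60605 gene identifiers. Of these, 60463 matched GENCODE 44, used for names and lengths, and annotated length here is the whole gene span. The strand setting and annotation of the counting are not given in the sources used here.

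Counts were analysed with edgeR 4.0.16 (limma 3.58.1, R 4.3.3). Genes passing filterByExpr with a minimum count of 10 were scaled by TMM and fitted by robust quasi-likelihood on clone and number group. Adjusted p-values are Benjamini-Hochberg over all genes tested, with a threshold of 0.1. The fold changes are log2, replicates 3 and 4 over 1 and 2. Library shares were compared by exact permutation within clones, and those other than totals, genes with a count, the top 100 genes and the mitochondrial share were chosen after seeing the data.

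Genes named were TRPS1, the 12 largest rises and falls past the threshold with at least 10 CPM and separation in every clone, up to 5 genes of each list with the smallest p, defining members that did not pass, and 3 genes for each difference of differences. Others were named after their values were seen. Some genes that this rule names are not reported here. The comparison and the gene lists were chosen with earlier results of these data known, and the time course lists are the study's own. Promoters are from RefSeq.

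The numbers pair DMSO with dTAG-13 by simultaneous collection, and deviations of pairs correlated at 0.0815 to 0.293. In DMSO alone the number group is the factor compared, so the number was used there only as a random block. Replicates of a clone differed beyond counting error, with chi-square per degree of freedom from 1.67 to 6.32. The script was tested on simulated data. Alternatives were RLE size factors, library totals, DESeq2 1.42.0, other filters, a threshold of 0.05, no clone term, sums over clones, voom with the number as a random block, all 24 libraries, and leaving out each library or clone. Scaling on protein-coding genes of at least 20 kb, removing each library's trend of length, and leaving out each number were added after seeing the data.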

Additional observations from a re-analysis of the deposited data

Results flagged for a closer look

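The difference between replicate numbers differed between DMSO and dTAG-13 for 566 genes by the interaction test. The 3 with the smallest p were TUBB2A, with a difference 0.98 lower in dTAG-13 (-0.9778), ENSG00000279602 (-0.4369) and ENSG00000236514 (-0.4629).

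Among 87 groups of 4 libraries examined, 6 held a library far from the other 3 by Dixon's ratio, where chance alone gives about 4.35. In the first DMSO replicate of Clone 28 they were RNA5SP132 at 53.11 CPM, RNA5SP358 at 96 CPM and SNORD5 at 35.66 CPM. In Clone 35 they were COL27A1 at 260.8 CPM in replicate 2 and RNA5SP500 at 22.61 CPM in replicate 1. In Clone 39 it was ROPN1L-AS1 at 13.15 CPM in replicate 4. These are genes of the named falls and rises, whose size they enter.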

How the results depend on the processing

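The main count of 6887 ranged from 5848 to 6793 when each library was left out in turn and was 6352 with the number as a random block in voom (correlation within a number 0.0354). Other settings moved it further: with DESeq2 it was 4584 (2145 higher), without a clone term 3021 (1616 higher, 1405 lower), with counts summed over clones 4377 (2065 lower), without Clone 35 it was 4388 (2142 and 2246), without number 3 in all clones 4349 (2298 and 2051) and without number 4 it was 4453 (2236 and 2217). 

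Replicate 2 against 1 gave 344, 384 and 458 genes without Clones 28, 35 and 39. Replicate 3 against 2 gave 1782 and 1980 without Clones 28 and 35 and 2102 with the length trend removed. Replicate 4 against 3 gave 41 and 2 without Clones 28 and 39 and 16 with the trend removed. In dTAG-13 DESeq2 called 2165 (1084 higher, 1081 lower). With the replicate block of clone-and-number pairs the treatment difference gave 1104 genes (467 and 637), and 564 of the 566 were among them.

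With the length trend removed 5101 genes were called in DMSO, 4140 of them among the 6887, of which 4138 kept their direction. In a separate check of the named genes, called or not in that fit, the differences of ASAP1 and PTPN14 turned to 0.0233 and 0.0105. With library totals alone the split was 4826 higher and 2333 lower, against 3462 and 3425. Of 223 named genes past the threshold 18 lost the call in at least 1 fit that left out a library, COL27A1, RNA5SP132, SNORD36B and TSC22D3 among them. Other settings weakened more of the 223: 24 with counts summed over clones, 26 without number 1, 32 without number 4 and 64 without a clone term. Low counts limit genes under 10 CPM.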

Other observations

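Further lists stand beside the 15.5% higher and 15.3% lower over all genes. Of 75 nuclear-encoded genes of the respiratory chain 18 were higher and 5 lower, with NDUFA8 at 0.36, and with the length trend removed 9 were higher and 6 lower, where 2609 and 2492 of all 22341 genes were. Of 25 genes of the unfolded protein response 4 were higher and 9 lower, with ERN1, the IRE1 sensor, higher by 0.34 and HSP90B1 and ATF6 lower by 0.25 and 0.23. Of 26 tested genes of YAP and TEAD output 3 were higher and 10 lower, and 2 and 5 with the trend removed. The 504 ZNF-named zinc finger genes had 75 higher and 76 lower. With libraries scaled by their totals they had 122 and 42, where 4826 and 2333 of all 22341 genes were higher and lower. With the trend removed they had 41 and 81, beside 2609 and 2492 of all genes.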
